A study of Mus musculus with 6 samples.

Results

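The transcripts described are noncoding RNAs that share exon sequence, on the same strand, with a protein-coding gene. They were taken from the deposited long noncoding RNA (lncRNA) table: every row of the transcript had to carry the relationship "exon sense-overlapping", and the transcript had to reach 0.1 FPKM in at least 3 of the 6 libraries. FPKM is fragments scaled to transcript length and library size. Of the 31550 transcripts in the table, 3644 belonged to this class, and 1215 of these reached the level; 3 transcripts of the small nucleolar RNA host genes (Snhg) were left out. The 1215 exon-sharing transcripts were among the 4955 lncRNA transcripts that could be tested.

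The RNA came from cultured aortic vascular smooth muscle cells of C57BL/6 mice, the contractile cells of the vessel wall, grown in medium with 10% serum. One group of 3 libraries (titled ADV) is labelled Myocd knockdown and was given a knockdown adenovirus for 48 h, and the other 3 (titled Ctrl) are labelled as given a negative control virus for the same time. Elsewhere the submitters describe the Ctrl cells as wildtype; if no virus was given to them, effects of the virus and of Myocd cannot be told apart. The labels do not say whether replicate libraries stem from different animals or cultures, and p-values here reflect library-to-library spread that may be purely technical.

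Myocd, the coactivator of serum response factor for which the cells were treated, ran against the labels. Its level was 131.7, 130.1 and 145.5 FPKM in the 3 knockdown-labelled libraries and 0.0355, 0 and 0.125 FPKM in the 3 control-labelled ones (limma, log2 difference 9.87, SE 0.27, adjusted p = 1.11e-05; two-sided exact permutation p = 0.1, the smallest that 3 against 3 allows). All directions are therefore those of knockdown-labelled against control-labelled libraries, and say nothing of which group lost Myocd. Of 10 smooth muscle markers, 8 could be tested and 5 were higher in the knockdown-labelled libraries, while Myh11 and Cnn1, markers of the contractile state, stayed under 0.5 FPKM in all 6 libraries. Of 8 endothelial markers, 7 were under 0.5 FPKM in every library, and the list summed to 1.3 to 2.38 FPKM in the knockdown-labelled libraries and to 0.469 to 1.04 FPKM in the control-labelled ones. The remaining marker, Vwf, was at 1.16, 0.963 and 1.61 FPKM against 0.102, 0.146 and 0.306 FPKM. It passed in limma (limma adjusted p = 0.0346) but not in a test on fragments (edgeR adjusted p = 0.093). The 8 fibroblast markers summed to 1252 to 1484 FPKM against 1186 to 1355 FPKM, most of it Ly6a. Of 8 macrophage markers, 7 were in the data, summing to 21 to 24.5 FPKM against 22.4 to 26.4 FPKM. Cd14 stood at 15.9 to 21.7 FPKM and Cd68 at 2.02 to 5.51 FPKM, while Tyrobp was at 0 and 4 of the 7, Tyrobp included, were under 0.5 FPKM in every library. Of 8 mesothelial or epithelial markers, Msln stood at 73.1 to 86.9 FPKM and Krt19 at 224.9 to 273.1 FPKM, Epcam was at 0 in every library, and none of the other 5 passed 1.47 FPKM in any library. The part of such cells in the results was not tested. In bulk RNA, fewer cells of a type and less RNA per cell cannot be told apart. Fragments recovered per library ranged from 7528152 to 9793782 in the table of coding genes and from 1028765 to 1464414 in the lncRNA table.

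A coding gene commonly gives rise to several RNAs, through alternative splicing, retained introns and alternative starts and ends, and some of these have no open reading frame that is translated. Such RNAs often stay in the nucleus or are destroyed by nonsense-mediated decay, a surveillance pathway built around the helicase Upf1 and the Smg proteins. Choosing between the coding and the noncoding form is one way in which a cell can set the amount of a protein without a change in transcription. Because the forms share exons, a sequenced fragment from a shared exon can belong to either, and a program must divide such fragments between them; the sources used here do not give how this was done for the deposited tables.

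The annotated lengths of the 1215 transcripts ran from 152 to 12500 bases, with a median of 1927. Most, 825, come from the UCSC known gene set and 173 from RefSeq; the others come from Ensembl and from published catalogues. A single coding gene was named as the partner for 1160 transcripts and more than 1 for 55. In all, 1170 transcripts had a partner in the table of coding genes. They belonged to 1069 genes, of which 967 had 1 such transcript, 82 had 2 and 20 had more. The largest numbers were 8 for 4930503L19Rik, with log2 differences between groups of -1.19 to 2.42, and 5 for Rabggtb, a subunit of the enzyme that attaches lipid anchors to Rab proteins, with -0.62 to -0.01.

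Promoter sequences are given for 4 loci in which the coding gene and its exon-sharing transcripts moved apart or in which the transcripts moved in opposite directions, so that the start region of the coding gene can be set beside the values that follow. The sequences are from RefSeq for GRCm38.p6 (mm10), 250 bases before to 50 bases after the annotated start, written 5′ to 3′ on the gene's strand. Capitals mark every CCAAT box (CCAAT or its complement ATTGG) and every GC box (GGGCGG or its complement CCGCCC), the only motifs found there of 4 that were searched.
Ankrd39 promoter, chr1:36547203-36547502, minus strand: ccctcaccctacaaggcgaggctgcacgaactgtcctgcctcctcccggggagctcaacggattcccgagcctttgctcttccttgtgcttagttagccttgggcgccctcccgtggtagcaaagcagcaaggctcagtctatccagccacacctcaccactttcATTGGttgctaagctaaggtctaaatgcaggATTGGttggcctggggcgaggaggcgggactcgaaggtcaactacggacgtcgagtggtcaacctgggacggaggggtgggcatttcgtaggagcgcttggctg
Dexi promoter, chr16:10543005-10543304, minus strand: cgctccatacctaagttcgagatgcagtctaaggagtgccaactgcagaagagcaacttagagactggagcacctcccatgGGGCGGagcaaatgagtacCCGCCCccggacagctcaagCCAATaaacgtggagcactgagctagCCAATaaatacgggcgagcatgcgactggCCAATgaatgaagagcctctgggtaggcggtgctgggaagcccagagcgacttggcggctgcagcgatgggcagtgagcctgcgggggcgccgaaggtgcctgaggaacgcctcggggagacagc
Zfp809 promoter, chr9:22225453-22225752, plus strand: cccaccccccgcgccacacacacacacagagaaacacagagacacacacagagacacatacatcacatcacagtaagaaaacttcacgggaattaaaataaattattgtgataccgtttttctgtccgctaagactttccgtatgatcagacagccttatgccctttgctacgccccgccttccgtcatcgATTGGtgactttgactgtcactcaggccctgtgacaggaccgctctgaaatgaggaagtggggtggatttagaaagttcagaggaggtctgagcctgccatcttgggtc
Nmrk1 promoter, chr19:18631766-18632065, plus strand: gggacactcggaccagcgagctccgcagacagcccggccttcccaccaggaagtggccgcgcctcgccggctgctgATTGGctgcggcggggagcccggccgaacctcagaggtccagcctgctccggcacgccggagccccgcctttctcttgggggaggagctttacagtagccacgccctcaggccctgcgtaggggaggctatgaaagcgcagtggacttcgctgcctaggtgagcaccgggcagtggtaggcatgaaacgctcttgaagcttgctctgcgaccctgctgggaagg
The Ankrd39 promoter held 2 CCAAT boxes and the Dexi promoter held 3 CCAAT boxes and 2 GC boxes. The promoters of Zfp809 and Nmrk1 held 1 CCAAT box each. Neither a CArG box, the A/T-rich element bound by serum response factor, nor the sequence TATAAA was found in the 4 windows on either strand. A CArG box was present in 1.63% of all 32851 promoters in the RefSeq table, in 0.945% of the 1058 promoters of coding partners and in 0 of the 67 promoters of partners whose exon-sharing transcript passed the test. A GC box was present in 35.7%, 61.1% and 55.2% of these 3 sets and a CCAAT box in 37.4%, 37.4% and 43.3%. Of the 1136 partner symbols, 792 had a promoter in the table. The motifs are matches of letters and do not show that a factor binds. The set of all promoters was not limited to genes expressed in these cells, and differences between the 3 sets were not tested.

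Ankrd39, which encodes an ankyrin repeat protein, and its exon-sharing transcript exchanged places between the groups. The locus (ENSMUSG00000079610) is given as chr1:36538173-36547219 on the minus strand, which covers the gene; the transcript's own coordinates are not used here. The transcript (uc007aqp.1, 1980 bases) was at 1.44, 0.92 and 0.55 FPKM in the 3 knockdown-labelled libraries and under 0.01 FPKM in each control-labelled library. The coding gene was at 0, 0.0872 and 0.0723 FPKM in the knockdown-labelled libraries and at 1.61, 2.15 and 1.5 FPKM in the control-labelled ones. Neither set of values overlapped between the groups. The transcript rose (log2 difference 3.33, SE 0.42, limma adjusted p = 0.0153) and the coding gene fell (log2 difference -3.63, SE 0.41, limma adjusted p = 0.00969). The transcript made up 93.2% of the sum of both in the knockdown-labelled libraries. With 55 recovered fragments against 0, the transcript was at least 20.5-fold higher when the control group is set to the floor of 3 fragments over the group. The 2 added together stood at 1.02 ± 0.411 against 1.75 ± 0.35 FPKM (SD, n = 3 each), a difference that did not pass (limma adjusted p = 0.211). The summed values did not overlap between the groups, at 1.445, 1.007 and 0.6225 FPKM against 1.61, 2.152 and 1.497 FPKM. The total was thus not shown to be kept. The same transcript is also paired with the neighbouring gene Ankrd23, which was at 0.87 ± 0.282 and 1.02 ± 0.314 FPKM (SD, n = 3 each; limma adjusted p = 0.757).

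Dexi, named for its induction by dexamethasone, showed the same exchange at higher levels. The locus in the tables (ENSMUSG00000038055), chr16:10485541-10779516 on the minus strand, spans neighbouring genes as well. Its exon-sharing transcript (2_00011592, 633 bases) was at 8.78, 8.94 and 8.68 FPKM in the knockdown-labelled libraries and at 3.38, 5.74 and 3.64 FPKM in the control-labelled ones. The coding gene was at 4.29, 3.97 and 3.38 FPKM against 8.1, 8.52 and 9.38 FPKM. In each group the 3 libraries stayed on their own side, for the transcript and for the gene. The gene fell (log2 difference -1.14, SE 0.12, limma adjusted p = 0.0089), while the transcript's difference of 1.07 (SE 0.22) missed the threshold (limma adjusted p = 0.0599). Their sum was 12.7 ± 0.539 FPKM in the knockdown-labelled libraries and 12.9 ± 1.39 FPKM in the control-labelled ones (SD, n = 3 each), with a log2 difference of -0.02 (limma adjusted p = 0.913). The transcript's share of the sum was 69.5% against 32.5%. In recovered fragments, not scaled to library size, gene and transcript together held 99, 90 and 72 against 116, 135 and 132. These did not overlap between the groups, so the close sums hold for FPKM only.

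Zfp809 encodes a zinc finger repressor that silences retroviral DNA in early embryonic cells. Its exon-sharing transcript (NR_028420, 1786 bases; gene ENSMUSG00000057982, chr9:22225703-22243197, plus strand) is listed by RefSeq under the gene itself. The transcript stood at 9.7, 10.1 and 9.1 FPKM in the knockdown-labelled libraries and at 6.23, 6.74 and 6.52 FPKM in the control-labelled ones. The coding gene stood at 0.73, 1.22 and 0.794 FPKM against 2.59, 2.34 and 2.54 FPKM. The noncoding form was thus the more abundant in all 6 libraries. It rose by a small step (log2 difference 0.56, SE 0.11, limma adjusted p = 0.0496, a call kept without ADV 3 and lost without any other library) and the coding gene fell (log2 difference -1.38, SE 0.23, limma adjusted p = 0.0285). The share of the noncoding form was 91.4% in the knockdown-labelled libraries and 72.3% in the control-labelled ones. Their sum was 10.56 ± 0.734 against 8.98 ± 0.144 FPKM (SD, n = 3 each), which did not pass (limma adjusted p = 0.157). The summed FPKM did not overlap between the groups, at 10.43, 11.34 and 9.89 against 8.82, 9.08 and 9.05. In recovered fragments, not scaled to library size, the sums were 176, 186 and 140 against 150, 148 and 150 and overlapped.

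Nmrk1, a kinase that makes an NAD precursor from nicotinamide riboside, had 2 exon-sharing transcripts that changed in opposite directions (ENSMUSG00000037847, chr19:18631950-18652395, plus strand). The transcript of 1220 bases (2_00014886) was at 0.535, 0.579 and 0.781 FPKM in the knockdown-labelled libraries and under 0.01 FPKM in the others. The transcript of 1198 bases (2_00014887) was under 0.01 FPKM in all 3 knockdown-labelled libraries and at 1.46, 1.99 and 0.948 FPKM in the control-labelled ones. The first rose (log2 difference 2.84, SE 0.31, limma adjusted p = 0.0126) and the second fell (log2 difference -3.91, SE 0.39, limma adjusted p = 0.0107). Nmrk1 was the one partner with more than 1 transcript past the threshold. The first rests on 19 fragments and the second on 50, each against 0. The coding gene, at 6.65 ± 0.19 against 4.57 ± 1.17 FPKM (SD, n = 3 each), did not pass (limma adjusted p = 0.134). The 4 loci are shown side by side in the stacked plot of gene and transcript levels, for which Zfp809 and Nmrk1 were chosen after their values were seen.

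**Figure D1:**
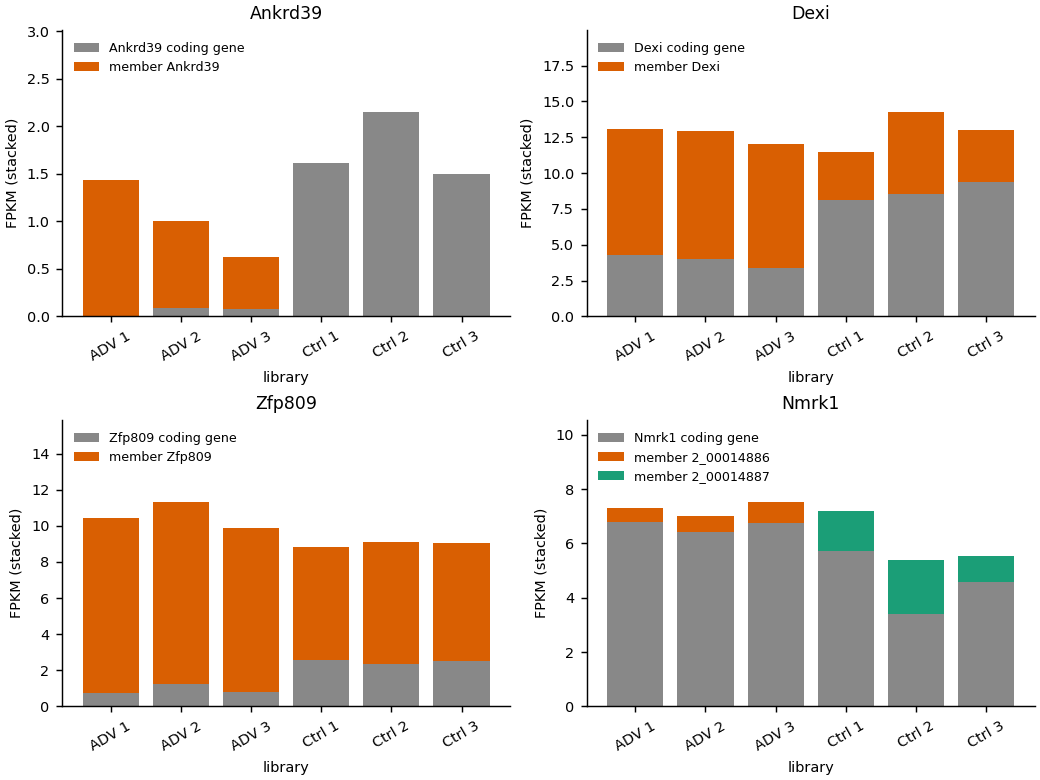
FPKM of the coding gene (grey) and of its exon-sharing transcripts (coloured) stacked for each of the 6 libraries at Ankrd39, Dexi, Zfp809 and Nmrk1. At Dexi the grey part is 3.38 to 4.29 FPKM in the ADV libraries and 8.1 to 9.38 FPKM in the Ctrl libraries. The stacked height there differs little between the groups in FPKM, while the summed fragments, not shown, were lower in the ADV libraries.

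The opposite changes of transcript and gene at Ankrd39, Dexi and Zfp809 were also tested directly. The value tested was the difference between groups in log2 transcript level minus log2 gene level. The ratio of transcript to gene moved by 6.96 (SE 0.62) at Ankrd39, by 2.21 (SE 0.26) at Dexi and by 1.95 (SE 0.21) at Zfp809, each with a limma adjusted p of 0.0178. All 3 kept their direction whichever library was left out. This had to hold, since neither transcript nor gene values overlapped between the groups. The 3 pairs lost the threshold in most of those fits: the Ankrd39 pair passed without ADV 1 or ADV 3, and the Dexi and Zfp809 pairs passed only without ADV 3. The highest adjusted p in any of the 6 fits was 0.0826 for each.

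Across all exon-sharing transcripts, 53 of 1215 passed the test (limma, adjusted p under 0.05), 29 rising and 24 falling in the knockdown-labelled group. That is 4.36% of them, against 4.26% of all 4955 lncRNA transcripts tested (2.22% higher and 2.04% lower). The 2 shares are close. At unadjusted p under 0.05 the class held 218 of 1215 and all tested transcripts 803 of 4955. The median log2 difference was 0.0035 in both, and the median absolute difference was 0.538 for the class and 0.485 for all tested transcripts. Members of the class listed by UCSC passed in 42 of 825 cases and those listed by RefSeq in 5 of 173.

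Most of the 53 were seen in 1 group only. In 40 of them the transcript reached 0.1 FPKM in all 3 libraries of one group and stayed under 0.01 FPKM in all 3 of the other, 19 present in the knockdown-labelled libraries and 21 present in the control-labelled ones. Over the whole class such a pattern occurred 48 times (3.95%), against 4.54% of all tested transcripts. Each such transcript met the FPKM rule only through the group in which it was present, so the rule itself lets this pattern in. Of the 827 in the class with at least 10 fragments in at least 3 libraries, 15 (1.81%) showed it. The groups did not overlap in any of the 53, and in 265 of the whole class (21.8%, against 23.3% of all tested). Recovered fragments were few: 18 of the 53 had under 10 in every library and 5 had 100 or more in a library. The count also leaned on single libraries. Without ADV 1, 2 or 3 it was 43, 2 and 55, and without Ctrl 1, 2 or 3 it was 32, 31 and 33. Every one of the 53 kept its direction in all 6 of these fits, which is certain where groups do not overlap. Of the 53, 2, those of Ttc13 and Luzp1, passed in all 6. A further 17 passed in all but the fit without ADV 2, while 9 passed in 2 of the fits, 19 in 1 and 3 in 0 of them.

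Tests on the fragments themselves gave fewer calls. The quasi-likelihood test of edgeR called 0 of the 1215 (lowest adjusted p = 0.0788; 181 at unadjusted p under 0.05, against 654 of all 4955) and 0.0202% of all tested transcripts. All 53 had an unadjusted edgeR p under 0.05. DESeq2 called 28 of the 1215, of which 12 were higher, and 60 of all 4955 tested (1.21%, with 0.585% higher and 0.626% lower). Outside the class it called 32 of 3740, a smaller share than within it, and this difference was not tested. Among the 53 were 23 of the 28. DESeq2 gave no adjusted p for 16 of the 53.

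**Figure D2:**
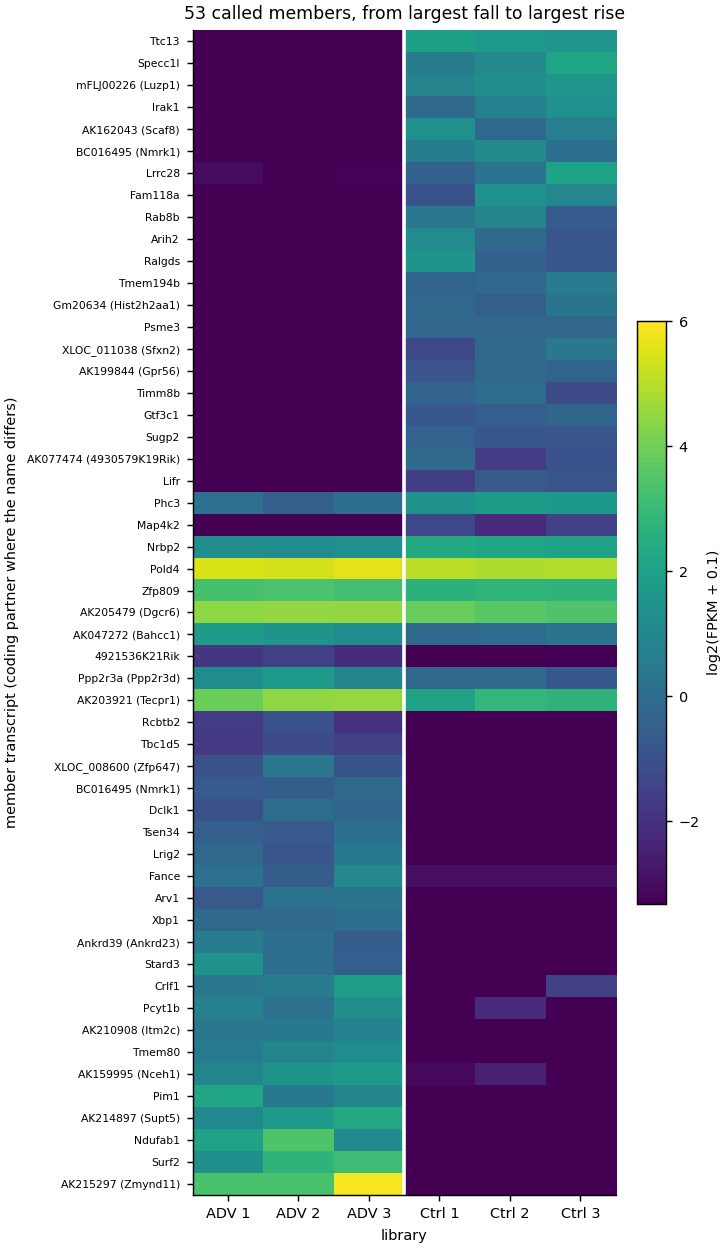
Level of each of the 53 exon-sharing transcripts that passed the test in each of the 6 libraries, as log2(FPKM + 0.1) in colour, ordered from the largest fall to the largest rise. Dark blocks on one side of the white line are the 40 transcripts that were under 0.01 FPKM in a whole group; the 8 rows with colour on both sides are those present in all 6 libraries.

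Of the 8 largest rises, all but that at Nceh1 were of transcripts under 0.01 FPKM in every control-labelled library, and the coding partners did not pass. At Zmynd11, a reader of methylated histone H3.3, the transcript AK215297 was at 10, 9.9 and 59 FPKM in the knockdown-labelled libraries and at 0 in the others, but its 164 bases held only 1, 1 and 6 fragments. At Surf2, a gene of the surfeit cluster, the transcript was at 2.39, 6.62 and 8.58 FPKM against under 0.01 FPKM, on 33 fragments against 0 (log2 difference 5.72, SE 0.52, limma adjusted p = 0.0107). At Ndufab1, which encodes the mitochondrial acyl carrier protein, it was at 4.02, 10.7 and 1.98 FPKM against under 0.01 FPKM. These high FPKM values come from short transcripts, so that few fragments give a large level.

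The transcripts of Pim1 and Nceh1 were longer and rest on more fragments. At Pim1, a growth-promoting protein kinase, the transcript stood at 4.47, 1.27 and 1.82 FPKM in the knockdown-labelled libraries and under 0.01 FPKM in the others, on 70 fragments against 0, which is at least 26.1-fold higher. At Nceh1, a hydrolase of cholesterol esters, the 3379-base transcript AK159995 was at 1.83, 2.77 and 3.09 FPKM against 0.0161, 0.0827 and 0 FPKM. It held 249 fragments against 4 (log2 difference 4.34, SE 0.40, limma adjusted p = 0.0107). On fragments it passed in DESeq2 (DESeq2 adjusted p = 2.7e-09) but not in edgeR (edgeR adjusted p = 0.0825). The Nceh1 coding gene stood at 9.57 ± 0.839 and 11.8 ± 1.24 FPKM (SD, n = 3 each) and did not pass (limma adjusted p = 0.163). At Supt5, a subunit of a transcription elongation factor, the transcript had 6 fragments against 0, and at Itm2c, which encodes a membrane protein, 3 fragments against 0. At Tmem80 it was at 1.33, 1.84 and 2.19 FPKM against under 0.01 FPKM.

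Of the 8 largest falls, all but that at Lrrc28 were of transcripts under 0.01 FPKM in every knockdown-labelled library. At Specc1l, a protein that links actin and microtubules, the 3027-base transcript was under 0.01 FPKM in all 3 knockdown-labelled libraries and at 1.42, 1.97 and 4.45 FPKM in the control-labelled ones, on 0 fragments against 253, which is at least 75.3-fold lower. At Luzp1, which encodes an actin-associated leucine zipper protein, the transcript mFLJ00226 was under 0.01 FPKM against 1.7, 2.38 and 2.88 FPKM. It held 0 fragments against 215 (log2 difference -4.56, SE 0.35, limma adjusted p = 0.0104). On fragments it passed in DESeq2 (DESeq2 adjusted p = 4.4e-08) but not in edgeR (edgeR adjusted p = 0.0788). It was at least 64-fold lower. The coding genes did not pass: Specc1l stood at 23.8 ± 0.292 and 24.3 ± 0.51 FPKM, and Luzp1 at 13.3 ± 0.562 and 16.1 ± 3.72 FPKM (SD, n = 3 each).

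Irak1, a kinase of interleukin 1 receptor signalling, had a transcript under 0.01 FPKM in the knockdown-labelled libraries and at 0.84, 1.61 and 2.47 FPKM in the control-labelled ones, at least 31.6-fold lower on 0 fragments against 106. At Scaf8, which binds the tail of RNA polymerase II, AK162043 was under 0.01 FPKM against 2.45, 0.786 and 1.48 FPKM, at least 31.3-fold lower on 0 fragments against 105. The transcript of Ttc13 had the smallest adjusted p of the class (log2 difference -5.07, SE 0.31, limma adjusted p = 0.00606). It was at 0 against 3.82, 3.16 and 2.84 FPKM, but over 254 bases that is 3, 2 and 2 fragments. The transcripts of Lrrc28 and Fam118a also fell, with 1 fragment against 172 and 0 against 12; the single Lrrc28 fragment, in ADV 1, gives 0.0209 FPKM.

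Only 8 of the 53 were present, at 0.1 FPKM or more, in all 6 libraries, and 6 of these rose. At Phc3, a subunit of a Polycomb repressive complex, the 10900-base transcript was at 1.04, 0.603 and 0.92 FPKM in the knockdown-labelled libraries and at 2.68, 3.24 and 3.04 FPKM in the control-labelled ones. It fell 3.5-fold, on 282 fragments against 1105 (log2 difference -1.72, SE 0.25, limma adjusted p = 0.0234; edgeR adjusted p = 0.082; DESeq2 adjusted p = 1.4e-08), the most fragments of the 53. The Phc3 coding gene was at 24.5 ± 2.59 and 22.6 ± 3.86 FPKM (SD, n = 3 each; limma adjusted p = 0.615). At Nrbp2, a pseudokinase, the transcript fell from 4.92, 4.36 and 4.08 FPKM in the control-labelled libraries to 2.3, 2.17 and 2.47 FPKM. Both falls kept the groups apart by more than the spread between libraries. These 8 transcripts were picked for description after their values were seen.

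At Tecpr1, which acts in the fusion of autophagosomes with lysosomes, the transcript AK203921 rose from 4, 7.08 and 6.54 FPKM in the control-labelled libraries to 14.8, 21.7 and 22.9 FPKM (log2 difference 1.75, SE 0.28, limma adjusted p = 0.0269). It holds 334 bases, and its level rests on 78 fragments against 25. The coding gene did not pass, at 8.72 ± 0.128 and 9.02 ± 0.307 FPKM (SD, n = 3 each; limma adjusted p = 0.736). At Dgcr6, a gene of the DiGeorge critical region, AK205479 rose from 14.3, 11.7 and 10.7 FPKM to 21.3, 22.4 and 22.4 FPKM beside a coding gene at 8.51 ± 0.816 and 9.12 ± 1.18 FPKM. At Pold4, the small subunit of DNA polymerase delta, the transcript rose from 33.1, 28.9 and 30.6 FPKM to 43.9, 42.1 and 48.8 FPKM (log2 difference 0.54, SE 0.10, limma adjusted p = 0.043), a call that no fit with a library left out kept. The transcript of Bahcc1, AK047272, rose from 0.829, 0.856 and 1.09 FPKM to 3.27, 2.73 and 2.23 FPKM. That named Ppp2r3a, after a regulatory subunit of protein phosphatase 2A, rose 3.44-fold on 25 fragments against 8.

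Of the 1069 partners, 996 could be tested and 30 passed, 12 higher and 18 lower. This is 3.01%, against 3.44% of all 11612 genes tested (1.83% higher and 1.61% lower). The median absolute log2 difference was 0.542 for the transcripts in tested pairs and 0.13 for the partners; the median SD within groups was 0.657 and 0.13, so the larger differences of the transcripts stand beside a larger spread and are not read as a larger response. The count of 30 partners moved with single libraries: it was 7, 5 and 17 without ADV 1, 2 or 3 and 6, 3 and 14 without Ctrl 1, 2 or 3. In the pair test, 39 of 1118 pairs passed, 23 with the transcript higher relative to its gene and 16 with it lower; this is 3.49%, against 3.2% of all 2784 pairs of the lncRNA table (1.94% higher and 1.26% lower). In 36 of the 39 the transcript itself had passed and in 5 the gene had. In 4 both had passed, at Ankrd39, Zfp809, Stard3 and Timm8b. At Stard3, a cholesterol transporter, the transcript was at 2.66, 0.942 and 0.615 FPKM against under 0.01 FPKM, while the gene fell from 15.1, 15.2 and 15.2 to 12.1, 12.5 and 11.4 FPKM. At Timm8b, a chaperone of mitochondrial import, the transcript was under 0.01 FPKM against 0.682, 0.881 and 0.34 FPKM, on 0 fragments against 9, while the gene rose from 23.4 ± 0.247 to 30 ± 0.0535 FPKM (SD, n = 3 each). Transcript and gene moved in opposite directions at all 4 loci. At Ankrd39, Stard3 and Timm8b the transcript met the FPKM rule only through the group in which it was present. Transcript and gene also share exons, so these are not 2 independent measures. The part of dividing fragments between them was not tested. On fragments the Timm8b gene did not pass (edgeR adjusted p = 0.0992), while the genes Ankrd39, Zfp809 and Stard3 did (edgeR adjusted p = 0.00027, 0.017 and 0.0342). In 32 of the 39 the gene's own log2 difference lay within 0.5 of 0. The pairs of Brd7, a bromodomain protein, and Carf passed although neither transcript nor gene passed alone in limma. On fragments the Carf transcript passed in DESeq2 (DESeq2 adjusted p = 0.0293) but not in edgeR (edgeR adjusted p = 0.241). The Carf gene passed in edgeR (edgeR adjusted p = 0.0148). At Brd7 the transcript was at 0.87, 0.987 and 1.35 FPKM against 3.07, 2.99 and 2.19 FPKM, with the gene at 17.6 ± 0.911 and 14.3 ± 1.5 FPKM (SD, n = 3 each). Without ADV 1, 2 or 3 the number of pairs was 12, 0 and 28, and without Ctrl 1, 2 or 3 it was 1, 0 and 0.

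**Figure D3:**
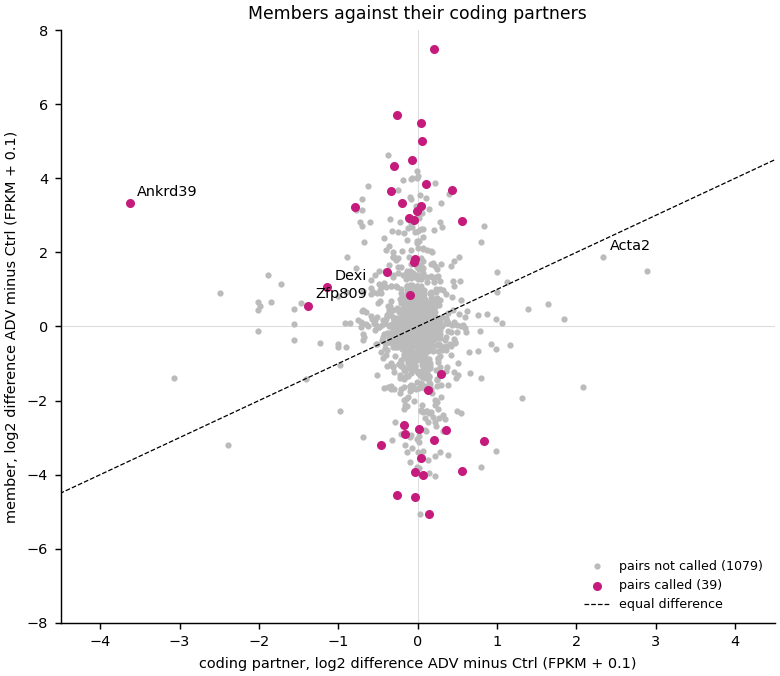
Log2 difference of each exon-sharing transcript (vertical) against that of its coding partner (horizontal) for 1118 pairs, with the 39 pairs that passed the test in colour and the dashed line marking equal differences. The coloured points lie along the vertical line at 0 for the gene, with Ankrd39, Dexi and Zfp809 to the left of it; Acta2 is labelled as the partner of smallest p.

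The coding partners with the smallest p-values had exon-sharing transcripts that, except at Ankrd39, did not pass. Acta2, smooth muscle actin, rose from 63.1, 67.1 and 71.5 FPKM to 346.2, 332.3 and 342.1 FPKM (log2 difference 2.34, SE 0.05, limma adjusted p = 4.4e-06). Its exon-sharing transcript AK080187 was at 0.566, 0.191 and 0.78 FPKM in the knockdown-labelled libraries and at 0.0856, 0.0906 and 0 FPKM in the control-labelled ones. The groups do not overlap, but the difference of 1.86 (SE 0.55) did not pass (limma adjusted p = 0.17). The transcript was 0.149% and 0.0901% of the sum of both.

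B2m, the light chain of class I histocompatibility molecules, rose (log2 difference 0.36, SE 0.04, limma adjusted p = 0.00934), while its transcript BC002288 was at 5.94, 5.91 and 5.15 FPKM against 8.09, 5.86 and 6.94 FPKM (limma adjusted p = 0.467). Hist1h2al, a histone H2A gene, fell (log2 difference -0.57, SE 0.07, limma adjusted p = 0.0103), and its transcript, which has 434 bases, overlapped between the groups at 144, 143 and 114 against 121, 141 and 90 FPKM. Counting could split reads between near-identical histone genes, so both values are uncertain. Pnpla7, a lysophospholipase, rose from 4.34, 2.91 and 3.45 FPKM to 8.65, 8.74 and 9.46 FPKM, and its transcript overlapped between the groups. Arid5a, an RNA-binding protein that stabilizes inflammatory messages, fell from 12.7, 13.9 and 13.3 FPKM to 6.48, 7.56 and 7.06 FPKM (log2 difference -0.92, SE 0.09, limma adjusted p = 0.00717), but on fragments the difference was -0.34 (edgeR adjusted p = 0.0704). The mitochondrial gene mt-Nd2, a subunit of respiratory complex I, rose (log2 difference 0.27, SE 0.03, limma adjusted p = 0.0106), and its transcript AK163440 overlapped between the groups, at 38.1, 28 and 40.7 against 15.8, 27.7 and 30.2 FPKM. The transcript of Arid5a ranged from 0.156 to 0.939 FPKM in one group and from 0.037 to 0.715 FPKM in the other.

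Adding the exon-sharing transcripts to their genes changed which loci passed, an analysis chosen after seeing the data. With the sum of gene and transcripts 43 partners passed, 24 of them higher. Of the 30 that passed as genes alone, 19 still passed and 11 did not, among them Ankrd39, Dexi, Zfp809, Stard3 and Sdccag8, a centrosomal protein. At Sdccag8 the gene alone fell from 10.6, 11.2 and 10.6 FPKM to 7.17, 8 and 5.95 FPKM, and the transcript was at 3.15, 1.99 and 2.42 FPKM in the knockdown-labelled libraries against 0, 0 and 0.545 FPKM; the sum differed by -0.20 (limma adjusted p = 0.267). Another 24 passed only with the transcripts added, including Tecpr1 (log2 difference 0.69, limma adjusted p = 0.0315), Dgcr6 (0.52, limma adjusted p = 0.0277) and Pold4 (0.31, limma adjusted p = 0.0495). In recovered fragments, not scaled to library size, Tecpr1 and AK203921 together held 414, 370 and 358 against 392, 364 and 399. Dgcr6 and AK205479 together held 97, 92 and 85 against 105, 106 and 92. Both sets overlapped between the groups, so the higher summed FPKM does not show more fragments from these loci.

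The exon-sharing transcripts varied more between libraries of one group than their partners. The SD on the log2 scale was higher for the transcript in 989 of 1118 pairs. The 2 differ in level: the transcript was a median 10.4% of the sum of both and stood above its gene in 77 pairs. Under 0.5 FPKM the median SD was 0.908 for exon-sharing transcripts, 0.624 for the other lncRNA transcripts and 1.18 for the 3 coding partners in that range, and between 0.5 and 1 FPKM it was 1.05, 0.566 and 0.612. Between 1 and 5 FPKM the median SD was 0.583 for exon-sharing transcripts, 0.365 for the other lncRNA transcripts and 0.279 for coding partners, and at 5 FPKM or more it was 0.273, 0.19 and 0.11. These medians are descriptions and were not tested.

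**Figure D4:**
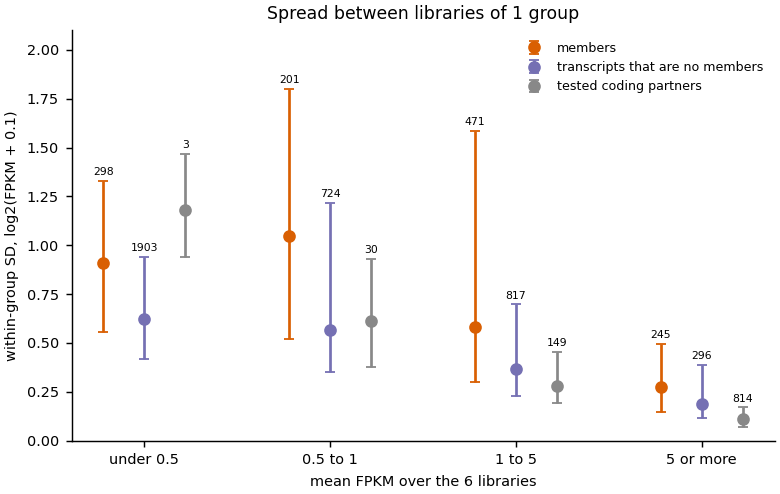
Median within-group SD of log2(FPKM + 0.1), with bars from the lower to the upper quartile, by mean FPKM for exon-sharing transcripts, other tested lncRNA transcripts and tested coding partners; the number of features stands above each bar. In the bins from 0.5 FPKM up the exon-sharing transcripts have the highest median.

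Many transcripts were present in some libraries of a group and absent from others of the same group. This held for 445 of the 1215 (36.6%, against 32.8% of all tested), with presence at 0.1 FPKM or more and absence under 0.01 FPKM. It occurred within the knockdown-labelled libraries for 321, within the control-labelled ones for 308 and within both for 184. In 288 of the 445 the transcript reached 1 FPKM in a library and in 62 it reached 5 FPKM. Transcripts present and absent inside a group outnumbered the 48 that were split cleanly by group. The same held over all 4955 tested transcripts, at 1626 against 225, so this is not particular to the class.

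Among the 8 of these with the highest mean FPKM, the highest were AK178107 of Aldh2 and AK219587 of Arl2, short transcripts with at most 8 and 4 fragments in a library. Sat1, Ncor1, Cyb5b and Kansl2 were picked from the 8 after their values were seen, for their higher fragment counts. At Sat1, the enzyme that acetylates spermidine and spermine, the transcript was at 8.87, 14.9 and 0.00279 FPKM in the knockdown-labelled libraries and at 10.2, 16.2 and 13.6 FPKM in the control-labelled ones. Library ADV 3 had 0 fragments where the others had 134 to 251. The Sat1 coding gene was highest in that same library, at 93.8 FPKM against 65.8 to 78.5 FPKM in the other 5. At Ncor1, a nuclear receptor corepressor, library Ctrl 2 had 0 fragments of the transcript and the other 5 had 23 to 54.

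At Cyb5b, a cytochrome of the outer mitochondrial membrane, the transcript was at 6.68, 15.2 and 29.1 FPKM in ADV 1, 2 and 3, and at 0.127, 8.22 and 0.00346 FPKM in Ctrl 1, 2 and 3. The coding gene ran the other way among the knockdown-labelled libraries, at 63, 55 and 34.8 FPKM. At Kansl2, a subunit of a histone acetyltransferase complex, AK217757 was under 0.01 FPKM in ADV 1 and at 6.99 and 29.1 FPKM in ADV 2 and 3, against 22.2, 32.8 and 33 FPKM in Ctrl 1, 2 and 3, and its coding gene stood at 45, 55.3 and 60.3 FPKM in ADV 1, 2 and 3. Here gene and transcript were low in the same library.

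The most abundant exon-sharing transcripts came from mitochondrial and ribosomal protein genes, and several were uneven within a group. Rpl41, a protein of the large ribosomal subunit, had a transcript at 380, 1410 and 1420 FPKM in ADV 1, 2 and 3 and at 281, 479 and 1020 FPKM in Ctrl 1, 2 and 3. Its coding gene was at 835.1, 202.2 and 244.4 FPKM in the same ADV libraries and at 912.2, 795.8 and 463.1 FPKM in the Ctrl libraries. In each library where the transcript was high the gene was low, and the sum of both kept to 1499 ± 247 and 1318 ± 151 FPKM (SD, n = 3 each). The groups overlapped for transcript and gene, and neither passed (limma adjusted p = 0.625 and 0.308). At Mrpl52, a protein of the mitochondrial ribosome, the transcript was at 180, 201 and 217 FPKM against 110, 73.8 and 141 FPKM, with no overlap but no pass (limma adjusted p = 0.122).

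The transcripts of Vdac2, Tagln2 and Rpl24, which encode a mitochondrial channel, an actin-binding protein and a ribosomal protein, varied less between libraries. They stood at 112 to 152, 147 to 197 and 157 to 198 FPKM and did not pass (limma adjusted p = 0.342, 0.286 and 0.702); the groups did not overlap for Vdac2 and Tagln2 and overlapped for Rpl24. At Rpl24 the noncoding transcript RP24-288C12.6 was far above its coding gene in FPKM in every library, the gene being at 9.13 to 11.1 FPKM. In recovered fragments the gap was much smaller, at 677 to 919 for the transcript and 382 to 519 for the gene. FPKM is scaled to length, and the transcript has 611 bases, so the wide gap holds for FPKM only. Ribosomal protein genes have many near-identical copies among which counting can split reads, so the values of Rpl41 and Rpl24 are uncertain.

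On the mitochondrial chromosome, library ADV 1 stood apart at several transcripts and genes, and Ctrl 2 was also low at these. The transcript Atpase6, over the genes mt-Atp6, mt-Atp8 and mt-Co3, was at 36.4, 3490 and 3080 FPKM in ADV 1, 2 and 3 and at 2580, 1310 and 2100 FPKM in Ctrl 1, 2 and 3. The transcript DQ539915, over mt-Co1, was at 78.3, 3130 and 2330 FPKM and at 1570, 800 and 1430 FPKM in the same order. The coding genes mt-Co2 and mt-Nd4l were low in ADV 1 too, at 47.6 and 85.3 FPKM against at least 1139 and 1232 FPKM in every other library. The gene mt-Co1 was instead highest in ADV 1, at 7258 FPKM against 5591 to 6030 FPKM in the other 5. Ctrl 2 was the lowest control-labelled library for Atpase6, DQ539915, mt-Co2 and mt-Nd4l. The mt-Co3 gene was lowest of all in Ctrl 2, at 1430 FPKM against 1791 FPKM in ADV 1. The transcript AK018753 over mt-Nd1 showed no low value in ADV 1, at 743, 742 and 778 FPKM against 652, 610 and 668 FPKM, and the mt-Cytb gene ran from 1334 to 1526 FPKM. With all libraries the log2 differences were -1.39 (SE 1.78) for Atpase6 and -0.55 (SE 1.42) for DQ539915. Without ADV 1 they were 0.77 and 1.15, so their direction rests on that library, and neither passed with it (limma adjusted p = 0.757 and 0.884). The part of RNA quality or of counting in this was not tested.

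**Figure D5:**
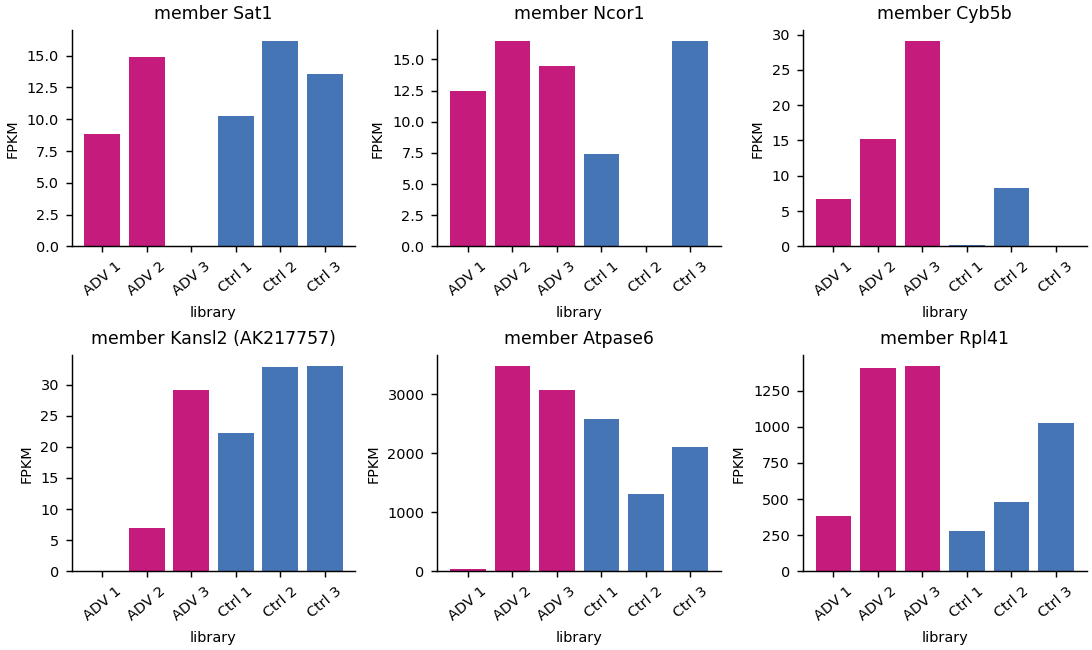
FPKM of 6 exon-sharing transcripts in each of the 6 libraries (ADV libraries in magenta, Ctrl libraries in blue), each panel on its own linear axis from 0. Single libraries are near 0 inside a group: ADV 3 for Sat1, Ctrl 2 for Ncor1, Ctrl 1 and 3 for Cyb5b, and ADV 1 for AK217757 of Kansl2 and for Atpase6.

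Summed over the class, exon-sharing transcripts took 4.16% of the FPKM of all tested lncRNA transcripts in ADV 1 and 5.29% to 8.94% in the other 5 libraries. Atpase6, DQ539915 and Rpl41 alone summed to 495 FPKM in ADV 1 and to 2587 to 8025 FPKM elsewhere. All other members together came to 6537 to 6759 FPKM in the knockdown-labelled libraries and to 6067 to 6213 FPKM in the control-labelled ones.

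Genes whose products destroy or splice such transcripts were examined as lists. Of 31 measured genes of RNA surveillance, among them Upf1, the Smg factors and the nuclear exosome, 0 passed in limma (5 at unadjusted p under 0.05; 1 passed in edgeR and 1 in DESeq2), with a median log2 difference of -0.07. Of 15 tested SR proteins, which promote the use of exons, 1 passed (2 in edgeR and 3 in DESeq2): Srsf4 fell from 16.4 ± 0.847 to 12.3 ± 1.07 FPKM (SD, n = 3 each; log2 difference -0.42, limma adjusted p = 0.0466; edgeR adjusted p = 0.0539). Of 37 tested hnRNPs and other splicing regulators, 4 passed and all 4 fell (7 passed in edgeR and 6 in DESeq2). Of all genes tested, 3.44% passed and 1.61% fell. These were Hnrnpf (-0.74, limma adjusted p = 0.0414), Celf1 (-0.31, limma adjusted p = 0.036), Hnrnpa2b1 (-0.27, limma adjusted p = 0.021) and Hnrnpa0 (-0.24, limma adjusted p = 0.0418). Celf1 and Hnrnpa2b1 are themselves partners of exon-sharing transcripts. Over all 11612 genes the median log2 difference was -0.01. The 5 calls rest on all libraries: without 1 of the 6 at a time, 0 to 2 were left, with 0 left without ADV 1, ADV 2, Ctrl 1 or Ctrl 2.

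Just inside the FPKM threshold lay the transcripts of Gm14327 (0 to 0.192 FPKM), Wdr41 (0 to 0.306 FPKM) and Gpam (0 to 0.304 FPKM). Just outside it lay those of Adam22 (0 to 0.767 FPKM), 9930104L06Rik (0 to 2.86 FPKM) and AK082735 of Lzts1 (0 to 0.267 FPKM). The values show that transcripts on both sides of the threshold were detected in some libraries and not in others.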

How the data were processed

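RNA freed of ribosomal RNA was sequenced from stranded libraries of 6 samples, 3 per group, per the labels' protocols. Per the submitters' processing notes, cutadapt, HISAT2 2.0.4, Cufflinks and Cuffdiff 2.2.1 were used, with builds mm10 and mm9 named without a role. The authors deposited FPKM values and estimated count columns per library for coding genes and for lncRNA transcripts. Not given in the sources used here were the annotation release and the use of strand in counting. Starts were shifted by 1; 6262 gene starts then equalled those of GRCm38 (mm10), against 472 as deposited.

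The deposited estimated counts are whole multiples of a constant per library (0.916 to 1.2) for 90.1% to 90.4% of values in the coding table and 70.3% to 71.7% in the lncRNA table, within 0.01; division by it gave the recovered fragments, rounded for the count tests. Floors cover counting error only. Libraries within a group differed by more than sampling noise (chi-square per gene 2.4 to 5.85).

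limma 3.58.1 with trend (R 4.3.3) was fitted on log2(FPKM + 0.1), a scale that understates the change of low features. Genes needed 0.5 FPKM and transcripts 0.1 FPKM in at least 3 of 6 libraries. Two-sided p-values received a Benjamini-Hochberg adjustment over each table, with a threshold of 0.05. The same fit on transcript minus gene gave the pair test. The code was tested on simulated data. edgeR 4.0.16 and DESeq2 1.42.0, other pseudocounts, filters and scalings, a replicate block and left-out libraries were alternatives. The exon-sharing transcripts and all lists were chosen with earlier results of these data known. Named were the 8 largest rises and falls among called transcripts with a mean of 0.5 FPKM in a group, the 8 of highest mean, the 8 partners and 8 pairs of smallest p, 3 transcripts on each side of the threshold and called genes of the lists; others are marked.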

Additional observations from a re-analysis of the deposited data

How the results depend on the processing

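The number of exon-sharing transcripts that passed, 53, was 28 with DESeq2, 0 with edgeR, 20 without a filter, 25 with a pseudocount of 1 and 27 with a stricter filter. With at least 10 recovered fragments in 3 libraries, added after seeing the data, it was 22, and leaving out 1 library at a time gave 2 to 55. Partners, 30, became 80 with DESeq2, 109 with edgeR, 9 without both replicate 3 libraries, 11 without trend and 3 to 17 with 1 library left out. Pairs, 39, became 8 without a filter, 3 with a pseudocount of 1, 23 with a stricter filter, 0 without both replicate 3 libraries, 14 with at least 10 fragments (added likewise) and 0 to 28 with 1 library left out. The 5 RNA processing genes became 10 with DESeq2, 10 with edgeR, 3 without a filter, 1 without both replicate 3 libraries, 0 without trend and 0 to 2 with 1 library left out. The cause of these moves was not tested, beyond the smaller groups where libraries were left out.

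Whether the replicate numbers pair the samples is not given, and correlations from 3 libraries per group cannot settle it. The same-number correlations of deviations over genes were 0.0375, -0.0039 and 0.0999, the last being the highest between any ADV and Ctrl library. Not every library correlated best with its own number. With the replicate block, 0 transcripts, 0 pairs, 20 partners and 1 RNA processing gene passed. Myocd kept its direction and its side of the threshold in every alternative, block included, with log2 differences of 7.02 to 11.75.

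Directions reversed for transcripts that had not passed. The transcript NR_033310 (Arid5a) became -0.031 with DESeq2, -0.013 with edgeR, -0.0104 with a pseudocount of 1, -0.745 to 0.561 with 1 library left out (-0.45 without ADV 2) and -0.29 without both replicate 3 libraries. The transcript uc008hxj.1 (Gpam) became -0.29, -0.27 and -0.026 under the same first 3 and -0.46 to 0.548 with 1 library left out (-0.011 without ADV 2). The transcript uc009vey.1 (DQ539915) became 0.52 with DESeq2, 0.53 with edgeR and 1.15 without ADV 1 (lowest -1.51, without ADV 2), and transcript uc009vfa.1 (Atpase6) 0.13, 0.14 and 0.77 (lowest -2.52). The transcript ENSMUST00000122365 (RP24-288C12.6) became -0.0062 with quantile normalization. Depth limits the transcripts: 18 of the 53 had under 10 fragments in every library.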
